A study of Mus musculus with 4 samples.

Results

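The genes described here move calcium between the cytosol, the endoplasmic reticulum (ER) and the outside of the cell. They are the ER pumps *Atp2a2* and *Atp2a3*, the plasma membrane pumps *Atp2b1* and *Atp2b4*, the IP3 receptors *Itpr1*, *Itpr2* and *Itpr3*, the store sensors *Stim1* and *Stim2*, and the entry channel *Orai1*. These 10 genes, of 55359 gene identifiers in the count table, were chosen on earlier results of the same comparison, so their differences between the groups are given as a description and are not tested here. All 10 were found by symbol and all 10 passed the filter on low counts. The cells were T8, a line grown out of 1 primary pre-B cell leukemia (pB-ALL) of a mouse with the genotype Irf4-/-. Both groups therefore lacked the endogenous factor, and both were transduced with a retrovirus, either EV-RV, which carries GFP alone, or IRF4-RV, which carries GFP and IRF4. Cells still viable on the day after transduction were collected for bulk RNAseq, with 2 libraries per group that the submitters describe as biological replicates. The titles and the tissue in the labels name T8, although their culture protocol speaks of T11, and the libraries were used as T8. Since all libraries come from 1 line, p-values measure the spread between cultures of that line only.

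In resting lymphocytes SERCA pumps, the products of *Atp2a2* and *Atp2a3*, load calcium into the ER, and PMCA pumps, the products of *Atp2b1* and *Atp2b4*, push it out of the cell. Signaling through the B-cell receptor produces IP3, which opens the IP3 receptors and empties the ER store. STIM proteins sense the falling store and open the Orai1 channel in the plasma membrane, which is the main route of calcium entry in lymphocytes.

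Of the 10 genes, 8 are in the RefSeq promoter table for GRCm38.p6, with 9 windows of 250 bases before to 50 bases after a transcription start, since *Atp2b1* has 2 starts. *Atp2a2* and *Itpr1* are not in it. The promoters of *Itpr2* and *Itpr3* are shown because these receptors differed between the groups in opposite directions, and those of *Stim1* and *Orai1* because the sensor and its channel did as well. Each is given 5′ to 3′ on the strand of its gene, over 220 bases that end 31 bases before the start. The core motif of ETS factors (GGAA or its complement TTCC) is in capitals. The whole windows held 1 core for *Itpr2*, 2 for *Itpr3*, 1 for *Stim1* and 3 for *Orai1*. Not every core of *Itpr3* and *Orai1* is therefore in the printed stretches. They lie at chr6:146502254-146502473, minus strand (*Itpr2*), chr17:27057054-27057273, plus strand (*Itpr3*), chr7:102267569-102267788, plus strand (*Stim1*) and chr5:123014824-123015043, plus strand (*Orai1*).
Itpr2: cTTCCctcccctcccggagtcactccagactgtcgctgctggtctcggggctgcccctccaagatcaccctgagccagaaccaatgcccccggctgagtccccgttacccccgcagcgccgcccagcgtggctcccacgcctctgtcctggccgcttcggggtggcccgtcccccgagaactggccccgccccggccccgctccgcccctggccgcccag
Itpr3: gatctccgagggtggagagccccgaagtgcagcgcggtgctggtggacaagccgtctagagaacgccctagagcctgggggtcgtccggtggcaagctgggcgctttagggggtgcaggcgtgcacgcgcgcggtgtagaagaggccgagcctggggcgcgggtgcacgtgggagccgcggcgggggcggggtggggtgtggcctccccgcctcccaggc
Stim1: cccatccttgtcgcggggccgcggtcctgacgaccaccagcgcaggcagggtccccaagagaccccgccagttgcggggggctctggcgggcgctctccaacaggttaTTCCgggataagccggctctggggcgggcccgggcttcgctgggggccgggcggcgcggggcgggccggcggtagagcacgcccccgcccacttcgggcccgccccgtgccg
Orai1: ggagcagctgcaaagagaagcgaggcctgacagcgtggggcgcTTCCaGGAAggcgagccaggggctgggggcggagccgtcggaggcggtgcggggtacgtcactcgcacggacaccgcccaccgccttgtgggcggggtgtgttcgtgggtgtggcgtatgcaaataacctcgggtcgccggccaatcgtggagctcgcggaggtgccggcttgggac

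ETS factors such as PU.1 recruit IRF4 to composite sites in B cells. The composite motif GGAANNGAAA, searched on both strands of the whole 300-base windows, was in 0 of the 9 windows of these genes and in 2.72% of all 32851 windows in the table. The interferon-stimulated response core GAAANNGAAA was likewise in 0 of 9, and in 3.44% of all windows. The AP-1 motif TGANTCA was in 0 of 9 and in 7.81%. The ETS core alone was in 8 of 9 windows and in 96% of all windows, so that its presence sets none of these genes apart. The composite contains the ETS core, and it can overlap the response core. In *Orai1* the 2 cores TTCC and GGAA have 1 base between them and form TTCNNNGAA, the spacing that STAT factors bind. This motif was searched after the *Orai1* sequence had been read, and it was in 1 of 9 windows and in 8.3% of all windows. A match is a description of the letters, and a missing match says only that these letters are not in the window.

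The windows were rich in CpG dinucleotides with 1 exception. *Atp2b4* held 4 CpG and was 47.7% G or C, whereas the other 8 windows held between 25 and 54 CpG, against a median of 7 over all windows. *Atp2b4* was also the gene with the lowest level. Its RefSeq window lies inside the gene as GENCODE M21 draws it, so that other starts of this gene are not covered.

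Library totals were 31686715 and 31230223 counts for EV-RV against 34771970 and 37817752 for IRF4-RV. *Irf4* itself, in which reads of the vector and of the disrupted locus are not separated, was at 242 and 241 CPM (counts scaled to library size with TMM factors) with EV-RV and at 2822 and 2491 CPM with IRF4-RV. The groups thus matched their labels. Of 14637 genes tested with edgeR's quasi-likelihood test at an FDR of 0.1, 2340 (16%) were higher and 2009 (13.7%) lower in IRF4-RV cells, and 1743 higher and 2867 lower with library size in place of TMM. The 12 B-lineage markers summed to 121349 and 119234 counts with EV-RV against 90363 and 96708 with IRF4-RV, whereas *Rag1* and *Rag2* had at most 1 count each. Among markers of other cells, the summed counts of 7 stromal genes were 1560 and 2754 with EV-RV against 1556 and 7912 with IRF4-RV, so that IRF4-RV replicate 2 stood apart. Of these genes, *Lum* and *Dcn* were at 0 in 3 of the 4 libraries and had at most 2 counts in the other. *Col1a1* alone went from 528 to 2265 between the IRF4-RV libraries. The T8 line had at first been grown on a layer of stromal cells. Summed counts of 7 macrophage markers were 48 and 41 against 287 and 262. *Mrc1* held 260 and 230 of the latter, and *Cd68* had between 15 and 29 counts in each library. The other 5 had at most 3 counts, with *Adgre1* and *Marco* at 0. Granulocyte markers summed to between 3 and 6 counts and T and NK cell markers to between 62 and 83, while erythroid markers summed to between 367 and 533. The part of these other cells in the results was not tested. In bulk RNA, fewer cells of a type and less RNA per cell cannot be told apart. The 10 genes were chosen on all 4 libraries, so their directions with 1 library left out add no support. Without IRF4-RV replicate 2 each of the 10 genes kept its direction, and the log2 fold changes were 0.96 for *Itpr2*, -0.36 for *Itpr3*, 0.56 for *Itpr1*, 0.49 for *Stim1*, -0.05 for *Stim2*, -0.52 for *Orai1*, 0.41 for *Atp2a3*, -0.15 for *Atp2a2*, 0.19 for *Atp2b1* and 1.004 for *Atp2b4*, of which *Atp2a2* was then no longer called.

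Of the 10 genes, 8 were called by edgeR (Benjamini-Hochberg adjusted over all genes tested), where 29.7% of all genes tested were called, 5 of the 10 higher and 3 lower. In 8 of the 10 the libraries of the groups did not overlap, as in 61.3% of all genes tested. Both counts follow from the choice of the genes, and nothing is read from them. The median log2 fold change was 0.20 for the 10 genes and 0.01 for all genes tested. The direction was not shared within the SERCA or the IP3 receptor family. *Atp2a3*, *Atp2b4*, *Itpr1*, *Itpr2* and *Stim1* were higher with IRF4-RV, *Atp2a2*, *Itpr3* and *Orai1* were lower, and *Atp2b1* and *Stim2* overlapped between the groups.

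**Figure D1:**
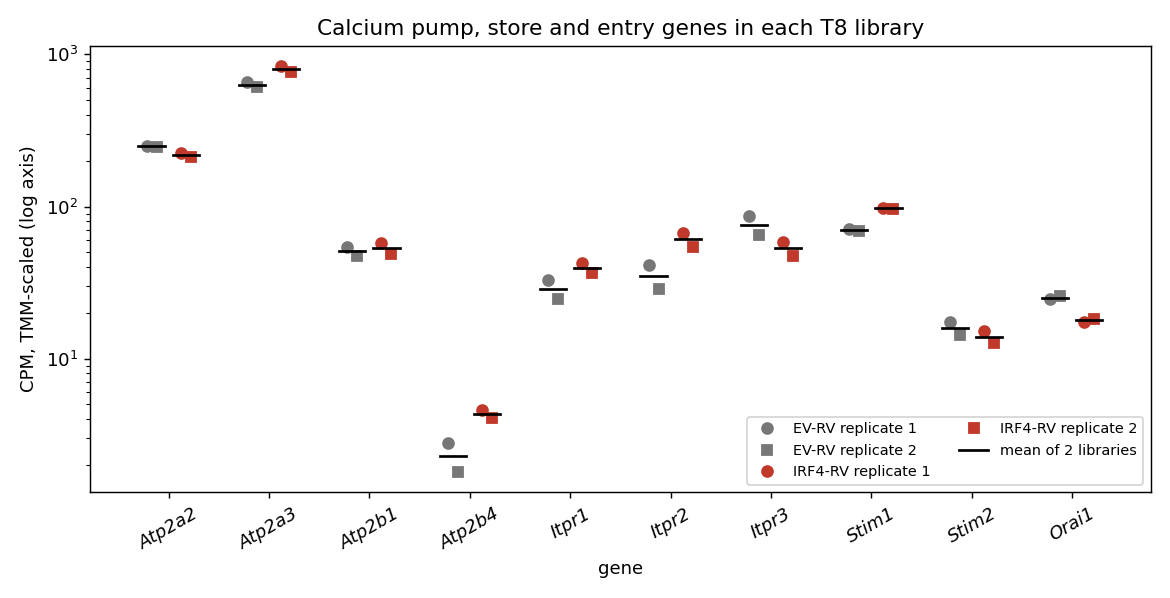
CPM of each gene on a log axis in the 4 T8 libraries, EV-RV in gray and IRF4-RV in red, with circles for replicate 1, squares for replicate 2 and a line for the mean of the 2 libraries. The plot shows *Stim1* and *Orai1* with replicates close together and groups apart, and the 3 *Itpr* genes with replicate 2 below replicate 1 in both groups.

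Of the 8 gene pairs compared within libraries, *Itpr2* and *Itpr3* differed most between the groups. *Itpr2* (ENSMUSG00000030287, chr6:146108299-146502223, minus strand, GRCm38) was at 41 and 28.5 CPM with EV-RV and at 67.2 and 54.4 CPM with IRF4-RV. Both IRF4-RV libraries lay above both EV-RV libraries, with means of 34.7 ± 8.85 and 60.8 ± 9.02 CPM (SD, n = 2 each). The log2 fold change amounted to 0.81 (standard error 0.174, 95% interval 0.40 to 1.21) and ranged from 0.57 to 1.09 with 1 library left out. *Itpr2* encodes the receptor subtype with the highest affinity for IP3.

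*Itpr3* (ENSMUSG00000042644, chr17:27057304-27122223, plus strand), which encodes the subtype with the lowest affinity, went the other way. It was at 86.7 and 65.4 CPM with EV-RV and at 58.9 and 47.1 CPM with IRF4-RV, so that the higher IRF4-RV library lay just under the lower EV-RV library. The means were 76.1 ± 15.1 and 53 ± 8.38 CPM (SD, n = 2 each) and the log2 fold change was -0.52 (standard error 0.153, 95% interval -0.88 to -0.17). Without EV-RV replicate 1 it was -0.31 and was no longer called. The exons of *Itpr3* share 2.58% of their bases with the antisense gene *Itpr3os*, and whether counting used the strand is not given in the sources used here.

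*Itpr1* (ENSMUSG00000030102, chr6:108213096-108551109, plus strand), the remaining subtype and the one best known from neurons, was at 33 and 24.7 CPM with EV-RV and at 42.4 and 36.4 CPM with IRF4-RV. The groups did not overlap, and the log2 fold change was 0.45 (standard error 0.146, 95% interval 0.11 to 0.79). The call rested on single libraries, since it was lost without EV-RV replicate 2 (0.25) and without IRF4-RV replicate 1 (0.31), and also with library size in place of TMM (0.35).

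Within each library the 3 receptors could be set against each other without any scaling between libraries. Per kb of annotated exon, *Itpr2* was at 0.288 and 0.265 of *Itpr3* with EV-RV and at 0.695 and 0.705 with IRF4-RV, a 2.53-fold higher ratio. *Itpr1* was at 0.187 and 0.186 of *Itpr3* with EV-RV and at 0.354 and 0.381 with IRF4-RV, 1.96-fold higher. The replicates of a group lay much closer together in these ratios than in the CPM of the genes. *Itpr3* made up 67.8% and 68.9% of the summed receptor level per kb with EV-RV against 48.8% and 47.9% with IRF4-RV. The share of *Itpr2* was 19.5% and 18.3% and then 33.9% and 33.8%, and that of *Itpr1* 12.7% and 12.8% and then 17.3% and 18.2%. The sum itself was 12.4 ± 2.59 CPM per kb with EV-RV and 12.1 ± 1.77 with IRF4-RV (SD, n = 2 each), a difference within the spread between replicates. With the length of the longest transcript in place of all exons, *Itpr3* held 58.5% and 59.5% and then 39.5% and 38.5%, so the size of the shares, though not their direction, depended on the length used.

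**Figure D2:**
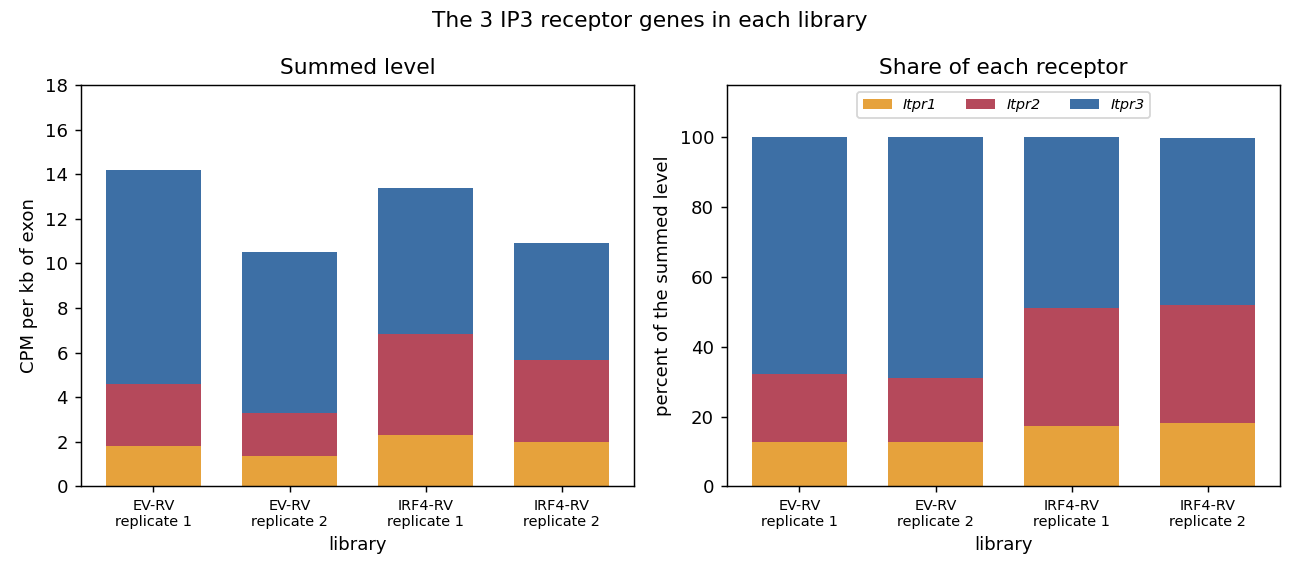
Stacked bars of the 3 IP3 receptor genes in each library, as CPM per kb of exon (left) and as percent of their summed level (right). The sum lies between 10.5 and 14.2 CPM per kb in all 4 libraries, while the share of *Itpr3* is over 67% in the EV-RV libraries and under 49% in the IRF4-RV libraries.

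The store sensor and the entry channel also differed in opposite directions, each with replicates close together. *Stim1* (ENSMUSG00000030987, chr7:102267806-102437319, plus strand), which encodes the principal ER calcium sensor, was at 71.5 and 68.8 CPM with EV-RV and at 98.5 and 96.1 CPM with IRF4-RV. The means were 70.1 ± 1.86 and 97.3 ± 1.71 CPM (SD, n = 2 each), and the groups did not overlap. The log2 fold change amounted to 0.47 (standard error 0.0756, 95% interval 0.30 to 0.65), and it was called under 10 of 10 alternative settings. *Orai1* (ENSMUSG00000049686, chr5:123015074-123030456, plus strand), the pore of the channel that STIM1 opens, was at 24.7 and 25.7 CPM with EV-RV and at 17.5 and 18.3 CPM with IRF4-RV. The groups again did not overlap, at 25.2 ± 0.725 and 17.9 ± 0.556 CPM (SD, n = 2 each). The log2 fold change was -0.50 (standard error 0.0944), called under 10 of 10 alternatives, and lay between -0.53 and -0.46 with 1 library left out. For both genes the alternatives were refits of the libraries on which the genes had been chosen, so their calls add no support.

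Per kb of exon, *Stim1* was at 0.64 and 0.592 of *Orai1* with EV-RV and at 1.25 and 1.16 with IRF4-RV, so that the ratio was 1.96-fold higher. Whether *Stim1* lay above or below *Orai1* in EV-RV cells depended on the length used, since with the longest transcript *Stim1* was at 16.1 and *Orai1* at 13.4 CPM per kb. *Orai2* and *Orai3*, which encode related channels, were not called, at 18.6 and 17.6 CPM with EV-RV against 18 and 13.8 with IRF4-RV for *Orai2*, and at 49.6 and 55.9 against 54.4 and 55 for *Orai3*. Of the 3 channel genes per kb, *Orai1* therefore made up 29.1% and 27.9% with EV-RV against 21.2% and 22.1% with IRF4-RV. *Stim2* (ENSMUSG00000039156, chr5:53998499-54121057, plus strand), which encodes the sensor of small losses from the store, was at 17.3 and 14.3 CPM and then at 15.2 and 12.6 CPM, and the groups overlapped. Its log2 fold change was -0.19 (95% interval -0.52 to 0.14). *Stim1* made up 67.2% and 70.4% of the sensors per kb with EV-RV against 76.2% and 79.1% with IRF4-RV.

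The ER pumps were the most abundant of the 10 genes and were split as well. *Atp2a3* (ENSMUSG00000020788, chr11:72961169-72993044, plus strand) encodes SERCA3, a pump of hematopoietic cells with low calcium affinity. It was at 660 and 608 CPM with EV-RV and at 837 and 763 CPM with IRF4-RV, both IRF4-RV libraries being higher. The log2 fold change was 0.33 (standard error 0.0823, 95% interval 0.14 to 0.53), and the call was lost without IRF4-RV replicate 1, where it was 0.25. *Atp2a2* (ENSMUSG00000029467, chr5:122453513-122502225, minus strand) encodes SERCA2, whose form SERCA2b is the housekeeping pump of most cells. It was at 251 and 248 CPM with EV-RV and at 224 and 211 CPM with IRF4-RV, both lower. The log2 fold change of -0.20 (standard error 0.0716) was called with all 4 libraries but lost with any 1 of them left out, between -0.26 and -0.15. Per kb, *Atp2a3* was at 3.03 and 2.82 times *Atp2a2* with EV-RV and at 4.31 and 4.16 times with IRF4-RV, a 1.45-fold higher ratio. The sum of both was 161 ± 7.32 and 187 ± 11.5 CPM per kb (SD, n = 2 each).

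The plasma membrane pumps were far less abundant. *Atp2b4* (ENSMUSG00000026463, chr1:133699457-133801041, minus strand), which encodes PMCA4, had 93 and 57 counts with EV-RV against 156 and 149 with IRF4-RV. This was 2.79 and 1.81 against 4.61 and 4.09 CPM, without overlap. The log2 fold change of 0.92 was the largest of the 10 genes and also the least certain, with a standard error of 0.246 and an interval of 0.35 to 1.49. Without EV-RV replicate 2 it was 0.64 and was no longer called. *Atp2b1* (ENSMUSG00000019943, chr10:98914406-99026143, plus strand), which encodes the ubiquitous PMCA1, was at 54.2 and 47.4 CPM and then at 57.7 and 48.8 CPM. These groups overlapped, and the log2 fold change of 0.07 (95% interval -0.19 to 0.33) changed sign without EV-RV replicate 2, without IRF4-RV replicate 1 and with library size in place of TMM. *Atp2b1* was at 15.6 and 21.1 times *Atp2b4* per kb with EV-RV and at 10.1 and 9.59 times with IRF4-RV, so that *Atp2b1* carried most of the PMCA level in every library.

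**Figure D3:**
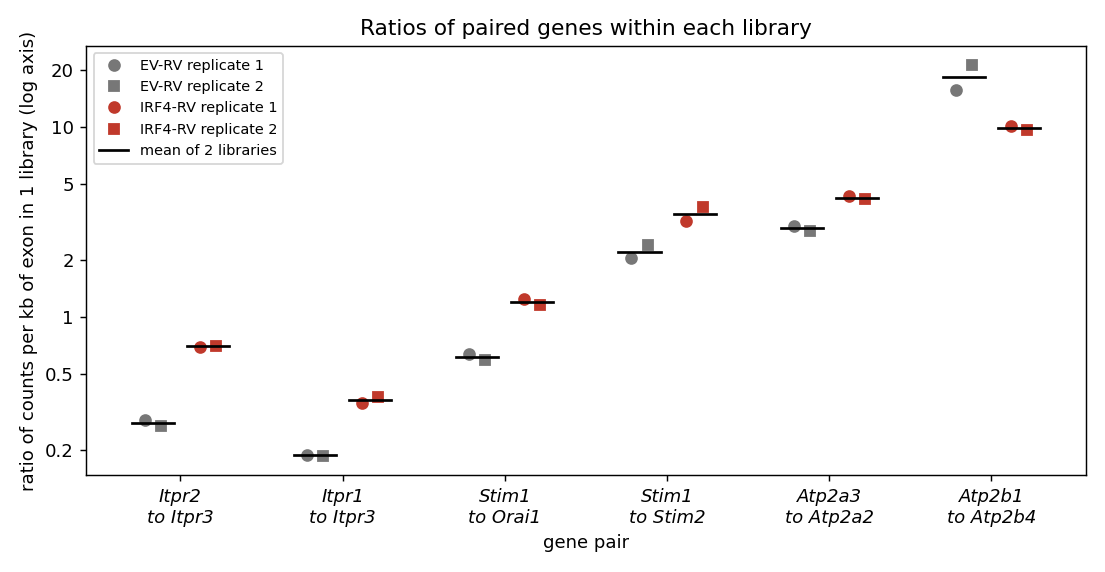
Ratio of counts per kb of exon between paired genes within each library, on a log axis, with EV-RV in gray, IRF4-RV in red and a line for the mean of the 2 libraries. In each of the 6 pairs both IRF4-RV libraries lie on the same side of both EV-RV libraries. This follows from the choice of the genes on the same comparison, and nothing is read from it. The ratio to *Itpr3* is 2.53-fold higher for *Itpr2* and 1.96-fold higher for *Itpr1*.

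**Figure D4:**
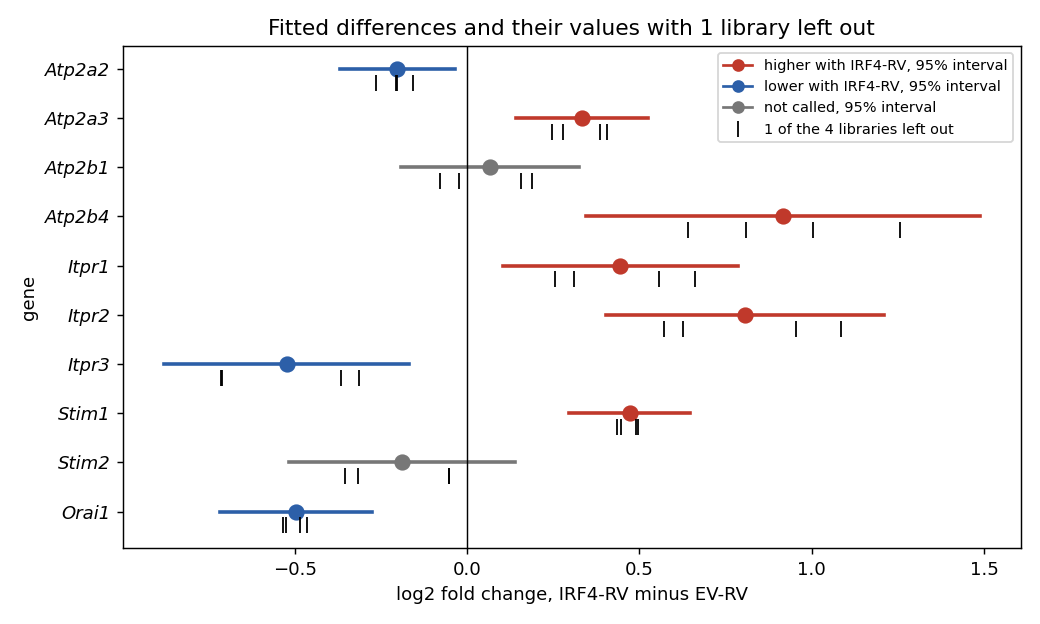
Log2 fold change of each gene (dot) with its 95% interval (bar), IRF4-RV minus EV-RV, and the value with each of the 4 libraries left out (ticks). *Stim1* and *Orai1* have the ticks closest to the dot, and the ticks of *Atp2b1* fall on both sides of 0.

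Per kb of exon the order of the levels with EV-RV was *Atp2a3* (120 ± 7.02 CPM per kb), *Atp2a2* (41.1 ± 0.3), *Orai1* (11 ± 0.316), *Itpr3* (8.43 ± 1.68), *Stim1* (6.76 ± 0.179), *Atp2b1* (3.34 ± 0.313), *Stim2* (3.08 ± 0.412), *Itpr2* (2.35 ± 0.598), *Itpr1* (1.58 ± 0.32) and *Atp2b4* (0.188 ± 0.0566; SD, n = 2 each). Among neighbors in this order only *Atp2b1* and *Stim2* overlapped between libraries. With IRF4-RV *Stim1* (9.38 ± 0.165) stood above both *Orai1* (7.79 ± 0.242) and *Itpr3* (5.87 ± 0.929), and *Itpr2* (4.11 ± 0.61) stood above *Atp2b1* (3.5 ± 0.413), although the libraries of the last pair overlapped. *Stim2* (2.7 ± 0.366), *Itpr1* (2.15 ± 0.232) and *Atp2b4* (0.355 ± 0.0296) came last, and their libraries did not overlap. The order depended on the length used. With the longest transcript, *Itpr1* (4.29 and 3.68 CPM per kb) lay above *Stim2* (3.08 and 2.54) in the IRF4-RV libraries, and *Atp2b1* (8.09 and 6.84) above *Itpr2* (5.75 and 4.66) and *Itpr3* (6.55 and 5.23).

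A difference that the choice of the genes did not use is that between the replicate numbers. With group and replicate number both in the edgeR fit, an analysis added after the data had been seen, 778 of 14637 genes (5.32%) were lower in replicate 2 than in replicate 1 and 672 (4.59%) were higher, or 995 and 341 with library size in place of TMM. Of the 10 genes 4 were lower, and they included the 3 IP3 receptors, while 6 were lower with library size in place of TMM. *Itpr2* was lower by a log2 difference of -0.41 (standard error 0.0775, edgeR adjusted p = 1.67e-05), *Itpr3* of -0.37 (0.0688, adjusted p = 1.15e-05) and *Itpr1* of -0.31 (0.0875, adjusted p = 0.00945). *Atp2b1* was lower by -0.22 (0.0742, adjusted p = 0.0506). The other 6 were not called, with differences from -0.37 for *Atp2b4* and -0.28 for *Stim2* to 0.06 for *Orai1*, and *Stim1* was at -0.04. The labels do not say that a replicate number marks a shared batch. Transcript length moved with this difference. Of 645 genes with an annotated transcript of at least 8000 bases, 34.4% were lower in replicate 2, with a median of -0.20 against 0.00 over all genes tested. The longest transcripts of *Itpr1*, *Itpr2* and *Itpr3* have 9870, 11679 and 8990 bases and that of *Atp2b4* 11725, whereas *Atp2b1* has 7130. The part of transcript length or of RNA quality in this difference was not tested.

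Beyond the 10 genes, 124 other genes of calcium handling were listed by role. Of these 88 were tested, with 17 higher and 13 lower, or 14 higher and 20 lower with library size in place of TMM. The 30 called were 23 with DESeq2 and 46 with the replicate number as a block. Among all genes tested 29.7% were called, 16% higher and 13.7% lower, and the counts of the lists are to be read against these shares. The median log2 fold change of the 88 was 0.04, against 0.01 for all genes tested. The lists were compiled with earlier results of these data known.

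Around the pumps, 1 of 7 genes tested was called. *Nptn*, which encodes neuroplastin, a subunit of PMCA pumps, rose from 52.2 and 51.9 CPM to 95.3 and 92 CPM (log2 fold change 0.85, standard error 0.0768, edgeR adjusted p = 0.000247). Among other release channels and leaks of the ER, 1 of 4 was called. *Tmbim6*, which encodes an ER membrane protein that lets calcium leak from the store, rose from 354 and 381 to 606 and 610 CPM (0.73, standard error 0.074, edgeR adjusted p = 0.000421). The ryanodine receptor *Ryr1* was at 2.94 and 3.84 CPM with EV-RV and at 2.75 and 2.17 with IRF4-RV and was not called, and *Ryr2* and *Ryr3* were too low to be tested.

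In the list of IP3 production, turnover and receptor partners, 4 of 23 genes were higher and 2 lower. The lower genes were *Ahcyl1*, from 139 and 134 to 118 and 107 CPM (-0.28), and *Bank1*, from 3.66 and 3.62 to 2.33 and 2.36 CPM (-0.63). Of the phospholipases that make IP3, *Plcd3* and *Plcg1* were higher. The most abundant, *Plcg2*, was not called at 377 and 320 against 359 and 336 CPM, and neither were *Plcb2* and *Plcb3*. *Plcd1*, the lowest of those tested, was not called either, at 0.3 and 0.222 against 0.177 and 0.439 CPM. *Plcd3* went from 4.47 and 6.15 to 13.5 and 12.4 CPM (1.29, edgeR adjusted p = 0.00139) and *Plcg1* from 1.92 and 1.46 to 3.28 and 4.2 CPM (1.14, edgeR adjusted p = 0.0143). *Erlin1*, part of the ER complex that tags activated IP3 receptors for degradation, went from 23.2 and 27.4 to 52.7 and 52 CPM (1.05, edgeR adjusted p = 0.000355). *Lrmp*, which encodes a binding partner of IP3 receptors and was the most abundant of this list, was not called at 456 and 440 against 452 and 446 CPM.

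Among other genes of store-operated entry 1 of 6 was higher and 1 lower. *Saraf*, which encodes an inhibitor that shuts STIM1 off, rose from 50.9 and 52.4 to 76 and 78.3 CPM (0.58, standard error 0.078, edgeR adjusted p = 0.00165). Per kb the ratio of *Saraf* to *Stim1* was 2.52 and 2.7 with EV-RV against 2.73 and 2.88 with IRF4-RV. The lower gene was *Cracr2a*, which encodes a cytosolic regulator of the STIM and Orai complex. It was named after its values were seen and had few counts, at 1.41 and 1.93 against 0.502 and 0.357 CPM (-1.95, edgeR adjusted p = 0.00979). *Surf4*, an ER cargo receptor that binds STIM1, was the most abundant of the list and was not called (0.09). In the list of other entry channels of the plasma membrane 1 of 8 was higher and 2 lower. *Trpv2* was the higher one, from 111 and 115 to 150 and 147 CPM (0.40, edgeR adjusted p = 0.00646).

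Further from the ER, 3 of 11 mitochondrial genes were higher and 2 lower. The higher genes included *Mcu*, the pore of the uniporter (0.40), and the sodium-calcium exchanger *Slc8b1* (0.57), and both calls were lost without EV-RV replicate 2 or IRF4-RV replicate 1, that of *Slc8b1* also without EV-RV replicate 1. Neither was called with DESeq2, and *Mcu* was not called with library size in place of TMM. *Vdac1*, a channel of the outer membrane, was lower (-0.22), a call that was lost without EV-RV replicate 2 or either IRF4-RV library. Of the other sodium/calcium exchangers 1 of 2 was called, lower. *Slc24a5*, which had the higher mean over the 4 libraries, was not called at 1.59 and 1.17 against 1.48 and 0.879 CPM, and it shares 39.53% of its exon bases with *Myef2* on the opposite strand. Among calcium-binding proteins of the ER lumen 2 of 10 were higher and 2 lower. The chaperone *Hsp90b1* was higher (0.37, lost without IRF4-RV replicate 1). *Rcn1* (-0.56) was lower, a call lost without EV-RV replicate 1 or IRF4-RV replicate 1. *Rcn2* (-0.22) was lower, a call lost with any 1 library left out, with DESeq2 and when all genes with at least 1 count were tested. Calreticulin, the main calcium buffer encoded by *Calr*, was not called (0.08).

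Downstream of the calcium signal, 4 of 17 genes of calcineurin, NFAT and the calmodulin kinases were higher and 3 lower. *Camk2d*, which encodes a calmodulin-dependent kinase, fell from 583 and 608 to 262 and 257 CPM (-1.20, standard error 0.0713, edgeR adjusted p = 2.93e-05). Of the catalytic calcineurin subunits, *Ppp3cc* and *Ppp3ca* rose, and *Ppp3cb*, the most abundant, was not called at 169 and 178 against 172 and 171 CPM. *Ppp3cc* went from 61.7 and 63.1 to 114 and 109 CPM (0.84, edgeR adjusted p = 0.000247) and *Ppp3ca* from 102 and 87.2 to 141 and 135 CPM (0.54, edgeR adjusted p = 0.00509).

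**Figure D5:**
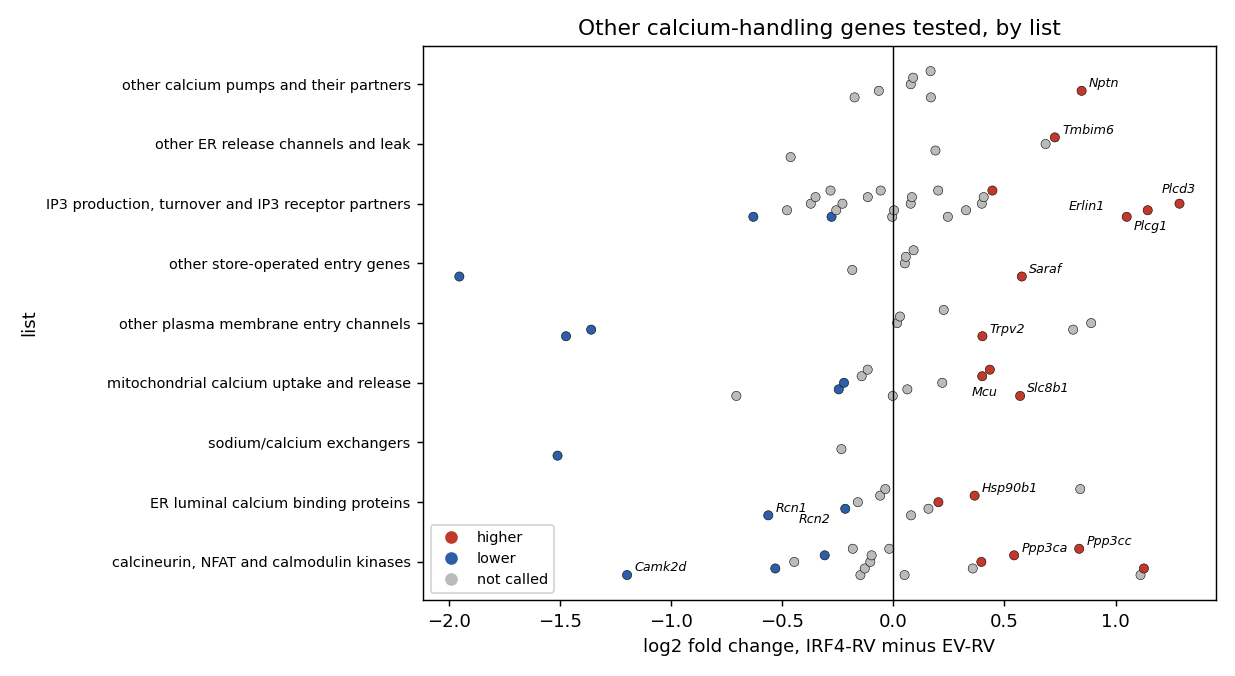
Log2 fold change, IRF4-RV minus EV-RV, of the 88 other calcium-handling genes tested, by list, colored by call. The 17 higher and 13 lower genes are spread over the lists, and *Nptn*, *Tmbim6*, *Saraf* and *Camk2d* are among those labeled.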

How the data were processed

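Bulk RNAseq was analyzed in 4 libraries of the T8 line, 2 with EV-RV and 2 with IRF4-RV, grouped by the sample labels. According to the submitters' processing notes and the study's methods, reads were checked with FastQC (0.11.2), aligned to GRCm38 with STAR (2.4.0j) and counted per gene with featureCounts, and DESeq2 (1.22.1) was used. The authors deposited raw counts, whole numbers without normalization. Strand and multimapping settings are not given in the sources used here, so overlapping genes and close copies are uncertain. Of 55359 identifiers 52083 were matched to GENCODE M21; the other 3276 took 0.203% to 0.486% of each library's counts.

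After filterByExpr, genes were tested in R 4.3.3 with edgeR 4.0.16 (TMM factors, quasi-likelihood F test, Benjamini-Hochberg adjustment over 14637 genes, FDR 0.1 as in the study). CPM are counts scaled with these factors. Levels per kb use the union of annotated exons. Intervals are 95% intervals of the fit. The procedure was tested on simulated data. The members and the lists were chosen with earlier results of these data known. Genes named were the 10 members, *Irf4*, and of each list at most 3 called genes with the largest change and a mean of at least 50 normalized counts, plus the most abundant. *Ryr1*, *Ryr2*, *Ryr3*, *Orai2*, *Orai3*, *Cracr2a*, *Plcg2*, *Plcb2*, *Plcb3*, *Plcd1*, *Ahcyl1*, *Bank1*, *Ppp3cb*, *Myef2* and the marker genes fall outside this rule. These genes were chosen after their values were seen. Some genes that the rule names are not reported here. The alternatives were DESeq2 1.42.0, edgeR with DESeq2's size factors or with library size only, 2 other low-count filters (a total of at least 1 count, or at least 10 counts in every library), an FDR of 0.05, the longest transcript as length, the replicate block and leaving out each library. The fit between replicate numbers under 3 scalings was added after seeing the data. Promoter windows are from RefSeq.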

Additional observations from a re-analysis of the deposited data

How the results depend on the processing

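*Itpr2*, *Stim1* and *Orai1* kept their call under all 10 alternatives to the main settings other than the FDR, and 8 of the 10 genes were called with DESeq2, with DESeq2's size factors and with the replicate block. At an FDR of 0.05, 6 of the 10 genes were called, and *Atp2a2* and *Itpr1* were lost. With 1 library left out between 5 and 7 of the 10 were called, 5 of them without EV-RV replicate 2 or IRF4-RV replicate 1. The call of *Atp2a2* was lost with any 1 library left out, at log2 fold changes of -0.26 to -0.15. Its value hardly moved without EV-RV replicate 1 (-0.20) or EV-RV replicate 2 (-0.21). Such fits have fewer degrees of freedom, and the part of this in lost calls was not tested. Ranges with 1 left out were 0.25 to 0.41 for *Atp2a3*, -0.079 to 0.19 for *Atp2b1* and 0.64 to 1.26 for *Atp2b4*. They were 0.25 to 0.66 for *Itpr1*, -0.71 to -0.31 for *Itpr3* and -0.35 to -0.05 for *Stim2*, which was never called. *Atp2a2* (-0.20) was also lost when all genes with at least 1 count were tested, and with library size only *Itpr1* was lost (0.35) and *Atp2b1* turned to -0.025. Of the other calcium genes 46 were called with the replicate block (27 higher and 19 lower) against 30, and 20 were called at an FDR of 0.05. The replicate numbers are shared by 2 pairs only, and libraries with the same number deviated together from their groups with a Pearson's r of 0.29 over 14637 genes. Genes are not independent replicates, and the block is no evidence of pairing. Of the genes not called, *Lrmp* changed sign with library size only (-0.089), with at least 10 counts in every library (-0.0069) and with DESeq2 or its size factors (-0.003), and lay between -0.029 and 0.021 with 1 library left out. *Slc24a5* lay between -0.67 and 0.10, and *Calr* was at -0.011 with library size only. The cause of these changes was not tested. Library size only moved the median of all genes from 0.01 to -0.08. With the longest transcript as length, levels in CPM per kb (EV-RV, then IRF4-RV) were 44 and 38.3 for *Atp2a2*, 138 and 174 for *Atp2a3*, 7.12 and 7.46 for *Atp2b1*, 2.93 and 3.99 for *Itpr1*, 2.97 and 5.21 for *Itpr2*, 16.1 and 22.3 for *Stim1* and 13.4 and 9.53 for *Orai1*. With 2 libraries per group the spread rests on few degrees of freedom, and the low counts of *Atp2b4* limit its precision.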
